A study of Homo sapiens with 8 samples.

Results

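The ion channel genes of hCMEC/D3 cells are described here: potassium, sodium, calcium and chloride channels, TRP channels and the machinery of store-operated calcium entry. hCMEC/D3 was derived from endothelium of human brain microvessels, was immortalised, and serves in culture to model the barrier between blood and brain. As a single line it stands for 1 source of cells. Members were all genes of the deposited table whose symbol begins with KCN, SCN, CACN or CLCN followed by a subtype, the TRPA, TRPC, TRPM and TRPV genes with the adaptor TRPC4AP, ORAI1 to ORAI3, STIM1 and STIM2, and ANO1, ANO6 and PKD2. This rule took 174 of the 23346 listed genes and used no measured value. Polyadenylated RNA was sequenced from 8 replicates of the line, which form 1 group with no treatment named, so the design holds no comparison between conditions. The labels do not say whether the replicates were separate cultures, so the p-values below measure the spread between these libraries, which may be technical.

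Ion channels open and close to let ions cross a membrane. Their pore-forming subunits decide which ion passes, and auxiliary subunits set where the pore goes in the cell and how it gates. Endothelial cells are not excitable in the manner of neurons. Their potassium channels set the membrane potential and with it the driving force for calcium. When calcium stores in the endoplasmic reticulum empty, STIM proteins sense the loss and open ORAI channels in the plasma membrane, and several TRP channels admit calcium or other cations in response to stretch, heat, lipids or oxidants. Chloride channels and transporters of the CLCN family act at the plasma membrane or in endosomes and lysosomes.

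Levels are given as CPM, counts scaled to library size, which compare libraries for 1 gene, and as RPKM, the CPM divided by the length of the reference transcript in kilobases, for comparisons between genes. A gene was called detected where each of the 8 libraries had 1 CPM or more. Library totals ran from 69388544 to 90205244 counts, and every count was even, so that the smallest step was 2 counts. All 8 endothelial markers were detected, with a summed level of 2961 to 4903 CPM. Markers of other cell types were lower: the summed mural cell list, which includes KCNJ8 and ABCC9, reached 25.6 to 40.2 CPM with 4 of 7 genes detected, the neuron list 3.24 to 7.84 CPM with 1 of 6 detected (SYT1), and the smooth muscle list 4.98 to 7.11 CPM with 2 of 3 detected. Astrocyte, microglia and epithelial lists had 0 of 4 genes detected each, with summed levels of at most 2.04 CPM in any library. The libraries differed in a trend on transcript length. Its slope, in log2 units per doubling of length, was -0.33 in replicate 8, -0.22 in replicate 2 and -0.10 in replicate 7, against 0.08 to 0.14 in the other 5 libraries. Replicates 2, 7 and 8 thus had relatively fewer counts in long transcripts. Test outcomes of reported members that changed without these libraries or with the trend removed are given in those settings too. Levels by library are as measured unless stated.

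Of the 174 channel genes, 42 (24.1%) were detected, against a background of 51.3% over all listed genes. Detection was uneven between the classes. Both STIM genes and all 3 ORAI genes were detected, as were 7 of 11 chloride channel genes and 9 of 23 TRP channel genes with PKD2, whereas 9 of 79 pore-forming potassium channel genes (11.4%), 2 of 14 sodium channel genes (14.3%) and 1 of 10 calcium channel pore genes were. Among the auxiliary subunits, 5 of 16 for calcium channels and 3 of 15 for potassium channels passed. Of the 132 members not detected, 14 had a mean of at least 1 CPM but fell below it in at least 1 library, 40 had means from 0.1 to 1 CPM, and 78 had means under 0.1 CPM, of which 9 had no count in any library. With 3 read pairs as the limit, a gene with no counts could still have had 0.0665 to 0.0880 CPM, depending on the library, counting error only. The detected channel genes were low for detected genes: their median was 2.75 RPKM against 11.4 RPKM over the 11636 detected genes with a length, and 9 of 42 lay above that median. In RNA from a whole culture, fewer cells with a transcript and less RNA per cell cannot be told apart. The count of detected members rose to 48 without replicates 2 and 8, and to 82 when only 10 counts per library were required.

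**Figure D1:**
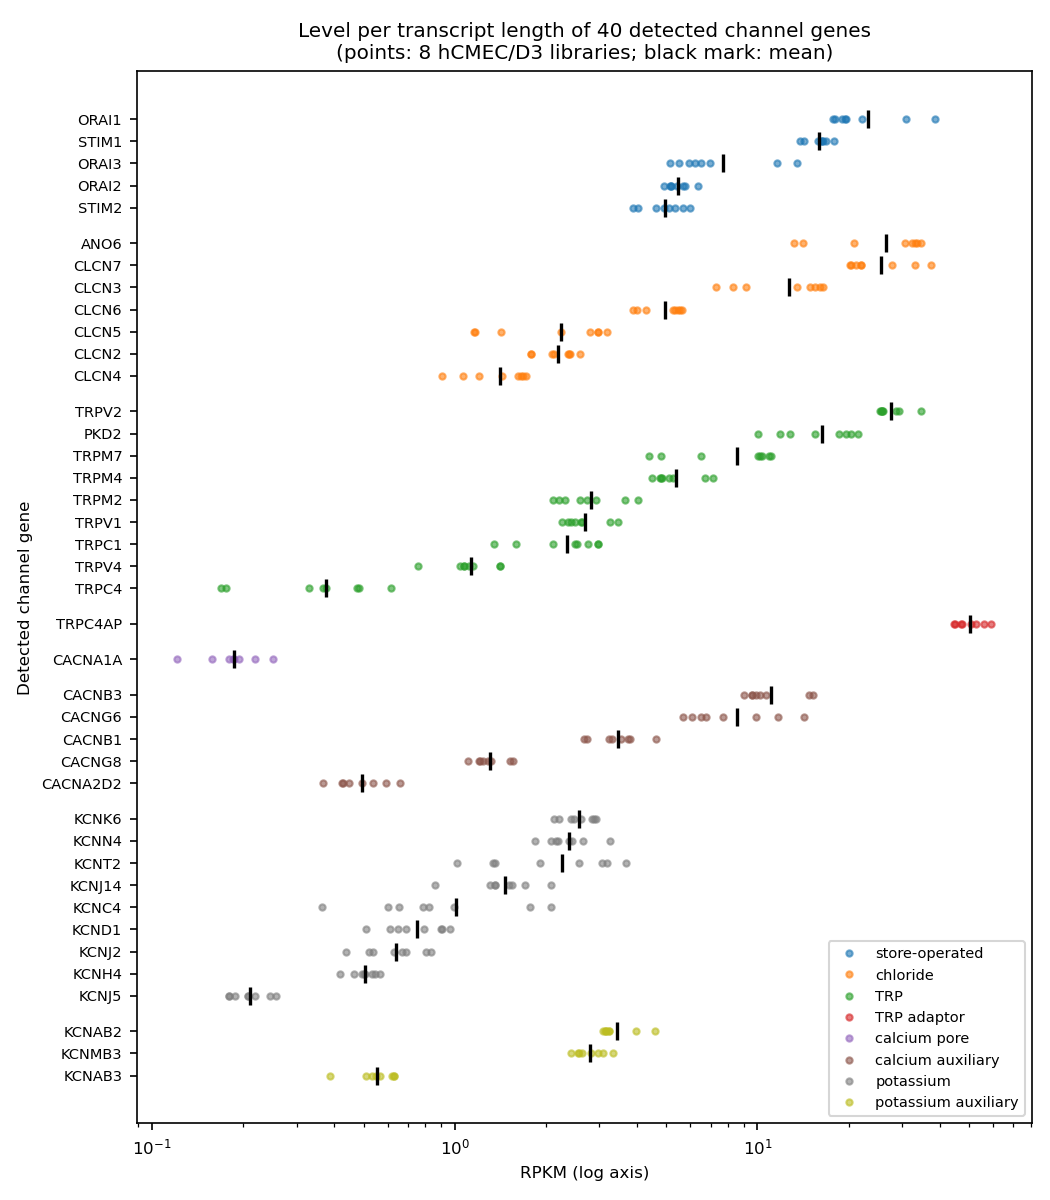
RPKM (log axis) of 40 of the 42 detected channel genes, grouped by class; points are the 8 libraries and black marks the means. TRPC4AP lies highest at a mean of 50.3 RPKM, and TRPV2, ANO6, CLCN7 and ORAI1 follow between 23.2 and 27.7 RPKM, while the pore-forming potassium channels all have means of at most 2.56 RPKM.

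Store-operated calcium entry was the most fully represented class. ORAI1, the main pore of the calcium release-activated channel (chromosome 12, 122064455 to 122079946, plus strand, 4 exons), had 23.2 ± 7.55 RPKM (SD, n = 8). Its level across libraries ran from 26.5 CPM in replicate 1 over a median of 29.3 to 57.7 CPM in replicate 8, with the next highest value, 46.3 CPM, in replicate 2. STIM1, the calcium sensor of the endoplasmic reticulum (chromosome 11, 3876933 to 4114440, 13 exons), was steadier, from 57.4 CPM in replicate 8 over a median of 67.9 to 74.5 CPM in replicate 1, or 16.0 ± 1.36 RPKM. ORAI3, a further pore subunit, had 7.68 ± 3.10 RPKM and was again highest in replicates 2 and 8, at 25.6 and 29.7 CPM against 11.4 to 15.4 CPM in the others. With the trend on length and GC content removed, replicates 2 and 8 remained the 2 highest libraries for ORAI3 but not for ORAI1. ORAI2 had 5.46 ± 0.462 RPKM and overlaps ALKBH4, and STIM2, the sensor that responds to smaller losses of calcium, had 4.95 ± 0.748 RPKM.

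Within libraries, ORAI1 exceeded ORAI2 per length by a log2 ratio of 2.04 ± 0.31 (SD), ORAI1 exceeded ORAI3 by 1.62 ± 0.21 and STIM1 exceeded STIM2 by 1.70 ± 0.22, each in 8 of 8 libraries (exact two-sided permutation test flipping signs, p = 0.00781, adjusted p = 0.00937, n = 8). The adjustment was over the 18 gene pairs tested, and 0.00781 is the smallest p that 8 libraries allow. The sizes depend on the length used. With the union of all annotated exons the log2 ratios were 1.16, 0.96 and 0.89 in that order, and ORAI1 over ORAI2 was 0.97 on the authors' normalised values and -0.81 on CPM with no length correction. ORAI1 stood above STIM1 by 0.49 ± 0.47 in 7 of 8 libraries (exact p = 0.0156, adjusted p = 0.0176, n = 8). That margin differed between libraries: it was 1.49 in replicate 8 and 0.87 in replicate 2, between -0.01 and 0.43 in the others, and 0.26 without replicates 2 and 8 (adjusted p = 0.0625 by the exact permutation test). On the authors' normalised values, which are adjusted for length and GC content, it was 0.11 ± 0.16 (adjusted p = 0.0781, exact permutation test). With the trend on length and GC content removed the margin was 0.49 ± 0.19 (adjusted p = 0.00827 by the exact permutation test), with union exon lengths it was 1.09, and on CPM with no length correction it was -0.99.

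Chloride channels and transporters made up the class with the largest summed level, 75.8 ± 8.16 RPKM (SD, n = 8). ANO6, a calcium-activated ion channel and phospholipid scramblase (chromosome 12, 45609770 to 45834187, plus strand, 20 exons), had 26.6 ± 9.05 RPKM. It ran from 79.4 CPM in replicate 8 and 85.0 CPM in replicate 2 over a median of 190 to 208 CPM in replicate 3, and replicate 7 lay between at 125 CPM. CLCN7, the lysosomal chloride-proton exchanger (chromosome 16, 1494935 to 1525085, minus strand, 25 exons), had 25.5 ± 6.57 RPKM. Its order of libraries was the opposite, from 84.4 CPM in replicate 1 over a median of 91.5 to 138 and 156 CPM in replicates 2 and 8. CLCN7 held 34.8% ± 12.9 of the summed RPKM of the class and ANO6 34.3% ± 8.93, so that their order was not resolved. ANO6 came first without replicate 2, 7 or 8, and without both replicates 2 and 8. It also came first with union exon lengths and on CPM with no length correction. The other detected members were the endosomal exchangers CLCN3 (12.7 ± 3.79 RPKM), CLCN5 (2.24 ± 0.869 RPKM) and CLCN4 (1.41 ± 0.313 RPKM), the late endosomal CLCN6 (4.93 ± 0.746 RPKM), and CLCN2, an inwardly rectifying channel of the plasma membrane (2.20 ± 0.298 RPKM). CLCN3, CLCN4, CLCN5 and CLCN6 were all lowest in replicates 2 and 8. With the trend on length and GC content removed, this held only for CLCN4 and CLCN6 among them. CLCN5 ran from 11.4 CPM in replicate 8 over a median of 24.8 to 31.4 CPM in replicate 6, and its span contains 8 listed microRNA genes. It was not called in the goodness-of-fit test for more variation than in genes of like abundance (edgeR adjusted p = 0.0822). It was called without replicate 8 (edgeR adjusted p = 0.0470) and without replicates 2 and 8 (edgeR adjusted p = 0.0398). With the trend on length and GC content removed, CLCN5 was not called. The SD of its log2(CPM + 0.1) over libraries was then 0.28, against 0.63 as measured. CLCN2 and CLCN6 each overlap 1 other listed gene.

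CLCN3 exceeded CLCN5 per length by a log2 ratio of 2.54 ± 0.18 and CLCN7 exceeded CLCN6 by 2.34 ± 0.57, both in 8 of 8 libraries (exact permutation p = 0.00781, adjusted p = 0.00937, n = 8). CLCN1, the chloride channel of skeletal muscle, had 0.0926 ± 0.0635 CPM. ANO1, the calcium-activated chloride channel of secretory epithelium and smooth muscle, had 24 counts over the 8 libraries and a mean of 0.0381 CPM. ANO6 lay above it in 8 of 8 libraries (exact permutation p = 0.00781, adjusted p = 0.00937, n = 8), but the size of the log2 ratio was set by the pseudocount, at 9.77 with 0.1 CPM added and 6.85 with 1 CPM. The direction followed from the detection rule, which ANO6 passed in every library, so the p-value adds no support.

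**Figure D2:**
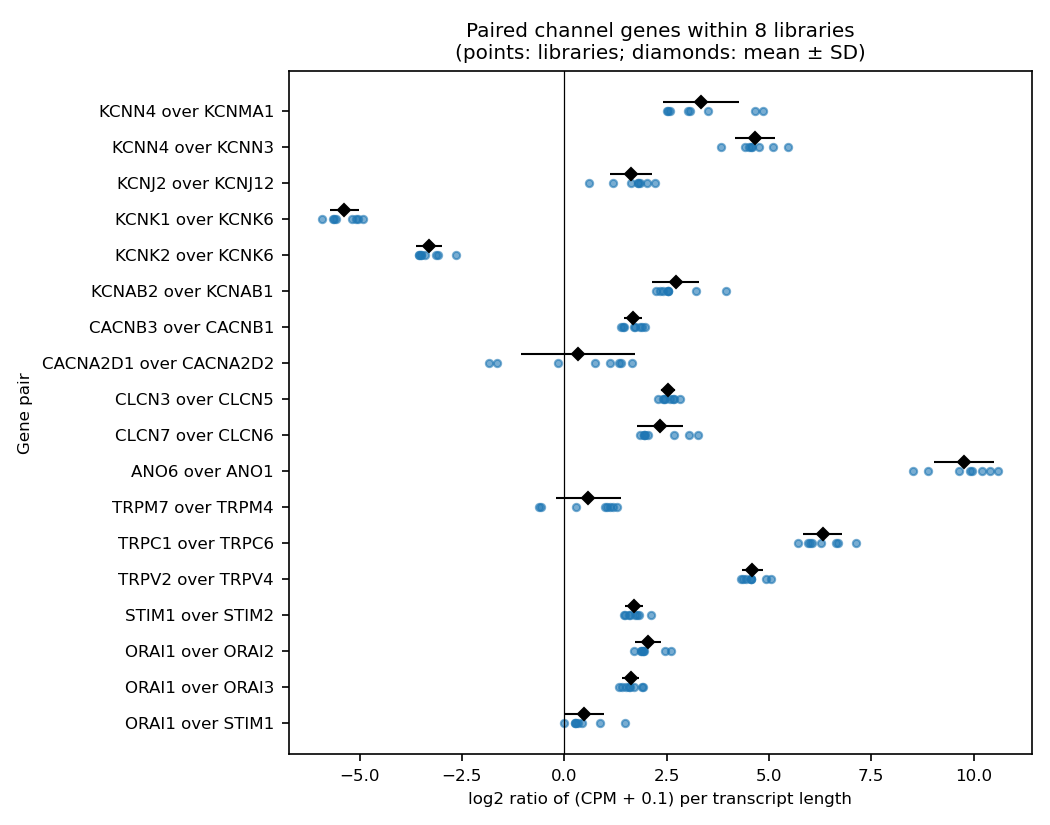
Log2 ratio of (CPM + 0.1) per transcript length for the 18 gene pairs; points are the 8 libraries and diamonds with bars the mean ± SD. Zero marks equal levels; all pairs but CACNA2D1 over CACNA2D2, TRPM7 over TRPM4 and ORAI1 over STIM1 keep 1 sign in all 8 libraries.

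Among the TRP genes, TRPV2, a cation channel of the vanilloid group that is linked to membrane stretch (chromosome 17, 16318856 to 16340317, plus strand, 15 exons), had the highest level, 27.7 ± 3.24 RPKM, or 41.1% ± 5.97 of the summed RPKM of TRP channels and PKD2 (SD, n = 8). It ran from 70.7 CPM in replicate 6 over a median of 72.0 to 96.6 CPM in replicate 7. PKD2, the polycystin channel of cilia and endoplasmic reticulum, followed with 16.3 ± 4.33 RPKM and ranged from 50.9 CPM in replicate 8 to 109 CPM in replicate 6. TRPM7, a magnesium and calcium channel fused to a kinase (chromosome 15, 50849352 to 50979012, minus strand, 39 exons), had 8.54 ± 2.83 RPKM. Its level was 45.4 CPM in replicate 8, 49.7 in replicate 2 and 67.5 in replicate 7, against 104 to 115 CPM in the other 5 libraries. With the trend on length and GC content removed, replicates 2 and 8 were still its 2 lowest libraries. The SD of its log2(CPM + 0.1) over libraries was then 0.13, against 0.56 as measured. TRPM4, a calcium-activated channel for monovalent cations, had 5.40 ± 0.981 RPKM. As measured it went the other way from TRPM7, with 29.0 and 27.3 CPM in replicates 2 and 8 and at most 21.4 CPM elsewhere. With the trend removed, replicates 2 and 8 were no longer its 2 highest libraries. The listed spans of 10 SNAR-A genes, small noncoding RNAs, overlap both TRPM4 and KCNJ14 on chromosome 19. KCNJ14 ends at 48969367 and TRPM4 starts at 49661016, so these spans are far longer than a small RNA. The overlap therefore does not show that reads were shared. How reads in overlapping genes were counted is not given in the sources used here.

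The log2 ratio of TRPM7 to TRPM4 per length was 0.59 ± 0.79, positive in 6 of 8 libraries and negative in replicates 2 and 8 (-0.58 and -0.62), and did not pass the test (exact permutation p = 0.0859, adjusted p = 0.0910, n = 8). With the trend on length and GC content removed, the same mean of 0.59 had an SD of 0.21 and passed (adjusted p = 0.00827 by the exact permutation test). TRPV2 exceeded TRPV4, a channel for osmotic and mechanical stimuli in endothelium, by 4.59 ± 0.26 in 8 of 8 libraries (exact permutation p = 0.00781, adjusted p = 0.00937, n = 8). TRPV4 had 3.64 ± 0.678 CPM. The oxidant-sensitive TRPM2 (2.82 ± 0.694 RPKM), the capsaicin receptor TRPV1 (2.69 ± 0.437 RPKM), TRPC1 (2.35 ± 0.613 RPKM) and TRPC4 (0.374 ± 0.154 RPKM), members of the canonical group of receptor-operated channels, completed the detected TRP channels. TRPV1 overlaps SHPK. TRPC1 and TRPC4 were both lowest in replicates 2 and 8, which with the trend on length and GC content removed held for TRPC1 only. TRPA1, the irritant receptor described in cerebral artery endothelium, had 2 counts in 1 library and none in the other 7. TRPC6 had 26 counts over all libraries. TRPC1 lay above TRPC6 in 8 of 8 libraries (exact permutation p = 0.00781, adjusted p = 0.00937, n = 8), with a log2 ratio of 6.31 that fell to 3.49 with 1 CPM as the pseudocount. TRPC1 had passed the detection rule in every library and TRPC6 had few counts. The direction was thus set in advance, and the p-value adds no support. TRPC4AP, an adaptor of a ubiquitin ligase and of TNF receptor signalling that is not a channel, had 50.3 ± 5.31 RPKM, the highest level of any member, and overlaps MYH7B.

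Pore-forming potassium channels were many and low. Their summed level was 16.0 ± 0.335 RPKM (SD, n = 8) over 79 genes, a smaller sum than that of TRPV2 alone. KCNK6, a background channel of the tandem-pore family (chromosome 19, 38810484 to 38819649, plus strand, 3 exons), had 2.56 ± 0.307 RPKM and ran from 12.1 to 16.8 CPM. KCNN4, the intermediate-conductance calcium-activated channel of endothelium (chromosome 19, 44270685 to 44285409, minus strand, 9 exons), had 2.38 ± 0.434 RPKM and ran from 3.61 to 6.39 CPM. KCNT2, a sodium-activated channel, had 2.27 ± 0.998 RPKM. The 3 genes differed by less than their spread, and KCNK6 held 16.1% ± 2.13 of the class. The other detected pores were the inward rectifiers KCNJ14 (1.47 ± 0.350 RPKM), KCNJ2 (0.640 ± 0.138 RPKM) and KCNJ5 (0.210 ± 0.0291 RPKM), and the voltage-gated KCNC4 (1.01 ± 0.601 RPKM), KCND1 (0.752 ± 0.163 RPKM) and KCNH4 (0.503 ± 0.0468 RPKM). KCNJ2, which carries the strong inward rectifier current of endothelial cells, thus had 3.45 ± 0.742 CPM.

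Whole subfamilies of potassium channels were under the detection level. None of the 8 KCNA, 2 KCNB, 5 KCNQ, 4 KCNG, 3 KCNS, 2 KCNV and 1 KCNF genes was detected, and none had a mean above 0.664 CPM. KCNA2, a neuronal channel, had 2 counts over all libraries. KCNMA1, the large-conductance calcium-activated channel, had 1.56 ± 0.767 CPM, from 0.576 CPM in replicate 2 to 2.57 in replicate 5. KCNN4 exceeded KCNMA1 per length by a log2 ratio of 3.34 ± 0.94 and KCNN3, a small-conductance calcium-activated channel, by 4.65 ± 0.49, each in 8 of 8 libraries (exact permutation p = 0.00781, adjusted p = 0.00937, n = 8). The first ratio was 5.32 with union exon lengths and 1.66 on CPM with no length correction, and the second was 4.04 and 1.92, and 3.45 on the authors' normalised values. Of these genes only KCNN4 passed the detection rule. The direction was thus largely set in advance, and the p-values add little support. KCNN3 itself had 1.18 ± 0.301 CPM, KCNN2 1.21 ± 0.295 CPM, and the inward rectifiers KCNJ6, KCNJ11 and KCNJ12 had 1.46 ± 0.452, 1.05 ± 0.242 and 1.02 ± 0.308 CPM. KCNJ12 has a near-identical copy, KCNJ18, that was listed with no counts and with a span inside that of KCNJ12. How reads in overlapping genes were counted is not given, so the level of KCNJ12 is uncertain. KCNJ2 exceeded KCNJ12 by 1.64 ± 0.51 in 8 of 8 libraries (exact permutation p = 0.00781, adjusted p = 0.00937, n = 8). That ratio carries the same uncertainty. KCNJ2 was detected and KCNJ12 was not, so here too the p-value adds little support. KCNJ8, the vascular pore of ATP-sensitive channels and a mural cell marker, had 16 counts over all libraries, and KCNJ10, the glial inward rectifier, had 24.

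KCNK2, a mechanosensitive and lipid-sensitive background channel reported in brain endothelium, had a mean of 0.927 CPM and was below KCNK6 by a log2 ratio of -3.30 ± 0.32 in 8 of 8 libraries (exact permutation p = 0.00781, adjusted p = 0.00937, n = 8). That ratio was -4.56 on the authors' normalised values and -2.46 with 1 CPM as the pseudocount. KCNK6 had passed the detection rule and KCNK2 had not. The direction was thus largely set in advance, and the p-value adds little support. KCNK1 had 18 counts in all and lay below KCNK6 in 8 of 8 libraries too, by -5.37 with 0.1 CPM added and -2.45 with 1 CPM. With so few counts, its direction against the detected KCNK6 was set in advance. KCNK7 had 1.00 ± 0.283 CPM. Of the auxiliary subunits, KCNAB2, a cytoplasmic beta subunit of voltage-gated channels, led with 3.44 ± 0.543 RPKM, followed by KCNMB3, a beta subunit of the large-conductance channel whose pore KCNMA1 was not detected (2.80 ± 0.313 RPKM), and KCNAB3 (0.553 ± 0.0817 RPKM). KCNAB2 exceeded KCNAB1 (1.59 ± 0.380 CPM) by 2.72 ± 0.58 in 8 of 8 libraries (exact permutation p = 0.00781, adjusted p = 0.00937, n = 8). With union exon lengths that ratio was 1.79. KCNAB2 was detected and KCNAB1 was not, so the p-value adds little support to the direction. KCNMB4, KCNIP2 and KCNIP4 had means of 1.02, 1.10 and 1.34 CPM without passing in every library.

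In the calcium channels, auxiliary subunits stood far above pores. The 16 auxiliary genes summed to 26.4 ± 5.33 RPKM and the 10 pore genes to 0.499 ± 0.0852 RPKM (SD, n = 8). The only detected pore was CACNA1A, the P/Q-type channel of presynaptic terminals, at 1.62 ± 0.334 CPM. The T-type pore CACNA1G had a higher mean, 1.99 ± 0.751 CPM, but fell to 0.520 CPM in replicate 8 and so was not called detected. The L-type pore of the heart and vascular muscle, CACNA1C, had 42 counts over the 8 libraries, CACNA1H had 76 and the N-type CACNA1B had 166. CACNB3 and CACNB1, cytoplasmic beta subunits, had 11.1 ± 2.44 and 3.45 ± 0.634 RPKM, with a log2 ratio of 1.68 ± 0.23 in 8 of 8 libraries (exact permutation p = 0.00781, adjusted p = 0.00937, n = 8). The gamma subunits CACNG6 and CACNG8, neighbours on chromosome 19, had 8.58 ± 3.09 and 1.31 ± 0.156 RPKM, and CACNG4 had 1.08 ± 0.278 CPM. CACNG6 was highest in replicates 2 and 8 (29.2 and 35.8 CPM, against 14.2 to 24.7 in the others), whereas CACNG8 was lowest there. With the trend on length and GC content removed, neither order held. CACNA2D2, an extracellular alpha-2-delta subunit, had 2.81 ± 0.554 CPM.

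Of the 14 sodium channel genes, 12 were not detected. Pores known from neurons were low: SCN1A had 46 counts and SCN2A had 6 over all libraries, SCN8A had 0.865 ± 0.310 CPM and SCN9A 0.501 ± 0.144 CPM.

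Variation between libraries was examined with a goodness-of-fit test in edgeR, which asks whether a gene varied more than genes of like abundance. Over all detected genes 4.66% were called, 558 of 11980, and among the 42 channel genes 3 were called, among them KCNC4 and KCNT2. With the trend on length and GC content removed, 1 was called, KCNC4, against a background of 6.49%. The typical channel gene varied about as much as other genes: the median SD of log2(CPM + 0.1) over libraries was 0.28 for the 42 members and 0.28 for all detected genes, and 0.20 and 0.17 with the trend on length and GC content removed. The library differences went with transcript length. Replicates 2 and 8 were the 2 lowest libraries for 11 of the 42 members (background 29.8%), and those 11 had a median transcript length of 6635 nt. They were the 2 highest for 15 members (background 33.7%), with a median length of 3228 nt. With the trend on length and GC content removed, the same libraries were the 2 lowest for 8 members (background 23.1%) and the 2 highest for 10 (background 26.2%). These counts are near their backgrounds and are no result about channel genes. Across the 42 genes, Spearman's rho between transcript length and the deviation in replicate 8 was -0.64, against -0.65 over 11636 detected genes, and -0.10 among the 42 after the trend was removed. These points share their library and its depth, and the rho values are a description. The small rho after removal was set in advance, because the trend was fitted over the detected genes, these 42 among them.

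**Figure D3:**
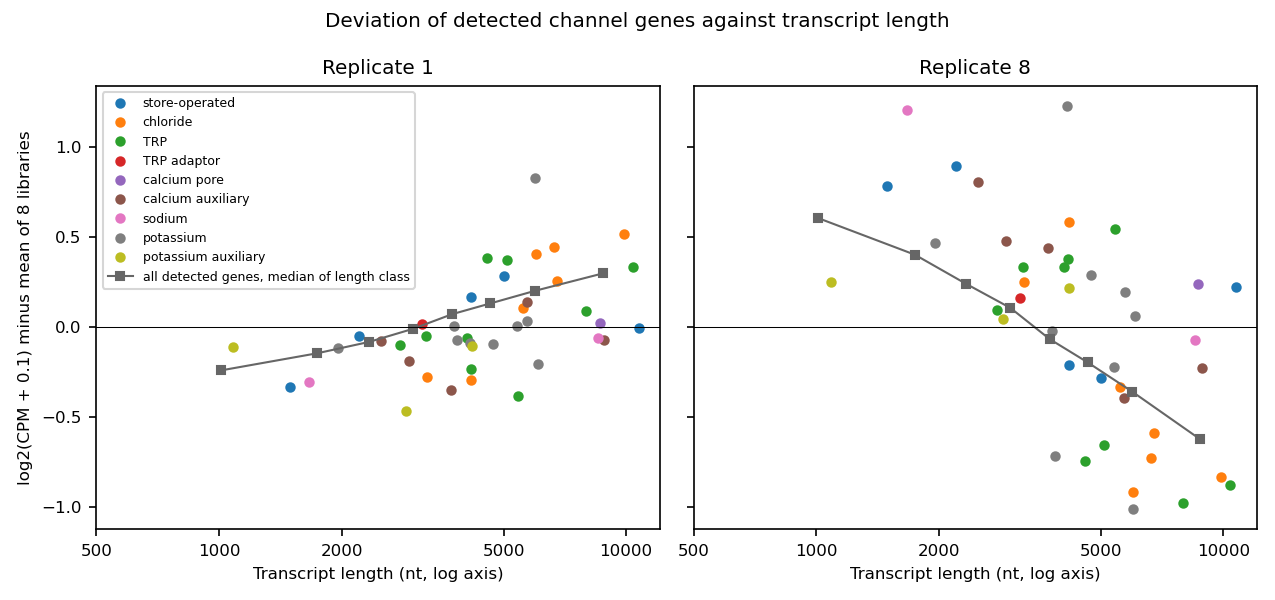
Deviation of log2(CPM + 0.1) from the mean of the 8 libraries against transcript length (nt, log axis) in replicates 1 and 8, for the 42 detected channel genes coloured by class, with the median of 8 length classes of all detected genes as squares. In replicate 8 the class medians fall from 0.61 at 1009 nt to -0.62 at 8776 nt and the channel genes scatter around that line; in replicate 1 the line rises from -0.24 to 0.30.

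KCNT2 had 22.1, 8.16, 15.4, 18.3, 11.4, 19.1, 8.01 and 6.08 CPM in replicates 1 to 8, lowest in replicates 8, 7 and 2 (edgeR adjusted p = 0.0406). Its call was lost with the trend removed (adjusted p = 0.427) and when any of replicates 1, 4, 5, 6 or 7 was left out, with edgeR adjusted p-values from 0.0523 to 0.148, but not without both replicates 2 and 8 (adjusted p = 0.00200). KCNC4, a fast-inactivating voltage-gated potassium channel (chromosome 1, 110753336 to 110776674, plus strand, 4 exons), had 3.40, 7.31, 2.49, 3.25, 1.50, 4.12, 2.70 and 8.63 CPM in replicates 1 to 8, a 5.74-fold range that was highest in replicates 8 and 2 and lowest in replicate 5. It was called before and after the trend on length and GC content was removed (edgeR adjusted p = 7.54e-04 and 7.03e-04), but not without both replicates 2 and 8 (adjusted p = 0.0810).

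The widest spread of any member with a mean of at least 1 CPM belonged to CACNA2D1, the alpha-2-delta subunit that binds gabapentin and thrombospondin (chromosome 7, 81579418 to 82073031, minus strand, 39 exons). It had 8.95, 1.33, 9.09, 9.58, 7.57, 10.3, 2.92 and 0.828 CPM in replicates 1 to 8. Replicates 2, 7 and 8 lay below all others. Its value in replicate 8 put it under the detection level, so it was not among the genes tested above. Without that filter it was called with an adjusted p of 1.68e-09 by edgeR, against a background of 3.96%, and with the trend on length and GC content removed as well the adjusted p was 4.51e-08 (3 members called, background 5.14%), a setting chosen after its values were seen. It was also called without replicates 2 and 8 (edgeR adjusted p = 2.70e-04). On the authors' normalised log2 scale, which adjusts for length and GC content, its values were 3.38, 1.32, 3.44, 3.53, 3.29, 3.64, 2.18 and 0.80. Its ratio to CACNA2D2 changed sign between libraries, from -1.83 in replicate 2 to 1.65 in replicate 6, with a mean log2 ratio of 0.33 ± 1.39 that did not pass the test (exact permutation p = 0.508, adjusted p = 0.508, n = 8).

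**Figure D4:**
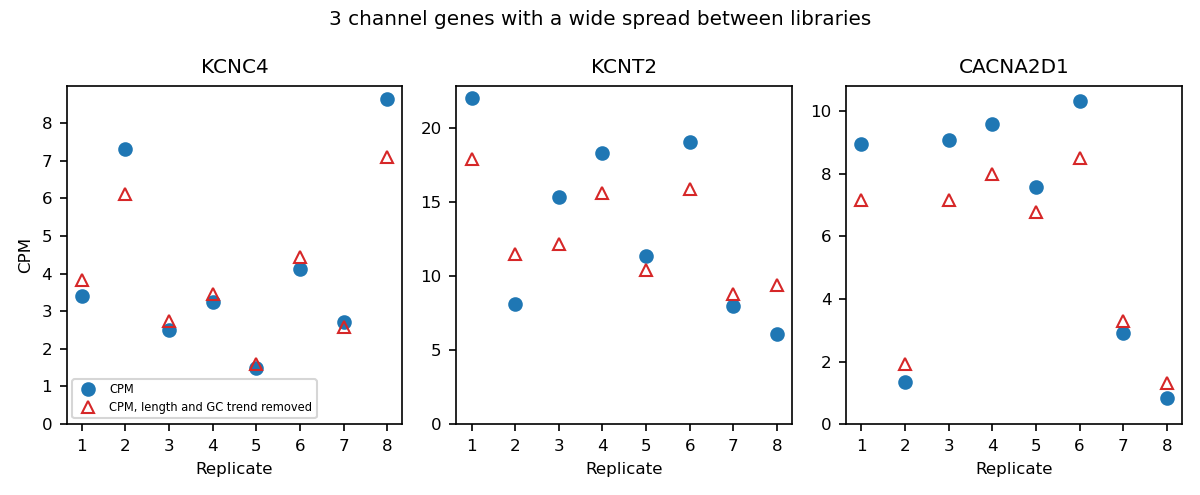
CPM of KCNC4, KCNT2 and CACNA2D1 in each of the 8 replicates (x axis), as measured (filled circles) and after removal of the dependence on length and GC content fitted per library (open triangles). KCNC4 stays highest in replicates 2 and 8 with the trend removed, and CACNA2D1 remains lowest in replicates 2, 7 and 8.

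The promoters of these 3 genes are shown because their transcripts differed widely between libraries, KCNC4 being highest and KCNT2 and CACNA2D1 lowest or near lowest in replicates 2 and 8. Each is the stretch of 250 bases before the gene start on its own strand, from RefSeq on GRCh38.p14, which is not the build of the count table. Capitals mark the GC box GGGCGG, a site of the SP1 family, or its reverse complement CCGCCC. The KCNC4 stretch (chr1:110210064-110210313, plus strand) holds 4 such boxes and 36 CG dinucleotides, that of CACNA2D1 (chr7:82443957-82444206, minus strand) 3 boxes and 27 CG, and that of KCNT2 (chr1:196608441-196608690, minus strand) 1 box, 13 CG and a TATAAA or TTTATA match on either strand.
KCNC4: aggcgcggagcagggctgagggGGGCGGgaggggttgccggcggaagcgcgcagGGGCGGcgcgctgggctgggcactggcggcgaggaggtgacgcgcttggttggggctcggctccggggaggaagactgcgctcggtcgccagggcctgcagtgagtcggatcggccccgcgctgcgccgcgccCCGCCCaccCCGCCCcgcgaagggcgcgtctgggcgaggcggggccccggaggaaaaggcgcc
CACNA2D1: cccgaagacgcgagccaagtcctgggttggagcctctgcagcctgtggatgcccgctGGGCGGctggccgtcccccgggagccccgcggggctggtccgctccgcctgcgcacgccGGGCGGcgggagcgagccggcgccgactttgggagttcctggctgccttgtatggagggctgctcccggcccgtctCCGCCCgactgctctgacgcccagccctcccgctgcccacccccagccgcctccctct
KCNT2: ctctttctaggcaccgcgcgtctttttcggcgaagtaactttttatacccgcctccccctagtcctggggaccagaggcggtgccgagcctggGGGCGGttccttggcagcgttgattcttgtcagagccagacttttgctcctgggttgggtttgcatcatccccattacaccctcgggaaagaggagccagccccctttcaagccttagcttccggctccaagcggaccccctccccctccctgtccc

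Upstream sequence was compared over all members found in that table, 125 of 174. The observed over expected number of CG dinucleotides in the 250 bases had a median of 0.684 in 35 detected channel genes and 0.506 in 90 that were not detected. Over all genes of the table the same medians were 0.827 for detected and 0.370 for undetected genes, a difference of medians that was wider than the one among channel genes. A GC box on either strand was present in 77.1% of the detected and 50.0% of the undetected channel genes, against 68.7% and 36.4% for all detected and undetected genes and 42.3% of all promoters in the reference. TATAAA or its reverse complement was present in 8.57% and 7.78% of the channel genes, against 4.88% and 15.6% for all detected and undetected genes and 11.1% of all promoters in the reference. The detected channels spread widely on the observed over expected ratio. Low values included KCNMB3 at 0.0789, CACNA2D2 at 0.0955 and KCNN4 at 0.231, and high ones STIM2 at 1.17 and TRPM7 at 1.21. Of the 35, 22 (62.9%) had 0.6 or more. These are descriptions of letters in a fixed window, and no test was made.

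**Figure D5:**
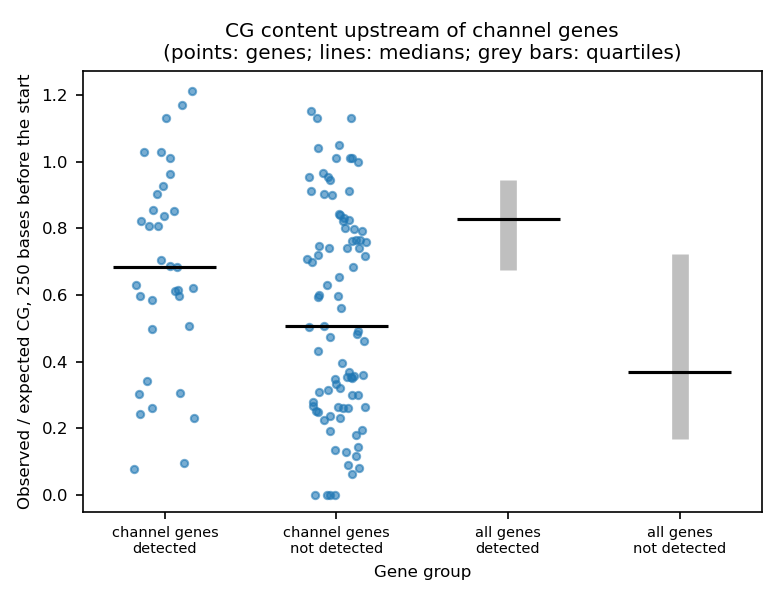
Observed over expected CG dinucleotides in the 250 bases before the gene start; points are the 35 detected and 90 undetected channel genes, black lines the medians, and grey bars the quartiles of all detected and undetected genes of the table. The channel medians of 0.684 and 0.506 lie between the medians of 0.827 and 0.370 over all genes, and both channel groups spread over most of the axis.

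Other channel genes, from a list of 79 that the rule does not take, were detected in 44 cases (55.7%), near the background of 51.3%. The 5 highest per length were CLIC1 and CLIC4, chloride intracellular channel proteins (445 ± 94.9 and 209 ± 59.4 RPKM), SARAF, an inhibitor of store-operated entry listed under its older symbol TMEM66 (65.6 ± 4.55 RPKM), LRRC8A, the required subunit of the volume-regulated anion channel (63.4 ± 3.36 RPKM), and ITPR3, an inositol trisphosphate receptor that releases calcium from stores (51.8 ± 13.5 RPKM). In the fit over all genes 4 of the 44 lay above the variation trend (background 4.66%). ITPR2 ran from 48.4 CPM in replicate 8 to 177 CPM in replicate 1 (edgeR adjusted p = 0.00388) and ITPR1 from 7.76 CPM in replicate 2 to 23.9 CPM in replicate 6 (adjusted p = 0.0445). CRACR2B, a regulator related to the ORAI-binding CRACR2A and listed as EFCAB4A, ran from 9.23 CPM in replicate 3 to 31.5 CPM in replicate 8 (edgeR adjusted p = 0.00445). These 3 calls were lost with the trend on length and GC content removed, with adjusted p-values of 0.174, 0.323 and 0.263. P2RX7, an ATP-gated cation channel, ran from 1.35 CPM in replicate 8 to 7.43 CPM in replicate 1 and was called with and without the trend (edgeR adjusted p = 4.91e-04, and 1.55e-04 with it removed). CRACR2A, listed as EFCAB4B and named here after its values were seen, ran from 6.91 CPM in replicate 8 to 15.0 CPM in replicate 5 and was called only with the trend removed (edgeR adjusted p = 0.00622), which made 2 of the 44 in that setting (background 6.49%). ABCC9, the regulatory subunit that pairs with KCNJ8 in vascular ATP-sensitive channels, was detected at 3.67 ± 0.968 CPM.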

How the data were processed

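RNA of 8 hCMEC/D3 replicates, 1 group, was analysed. The authors deposited raw counts per gene and conditional quantile normalised (CQN) log2 values, per the file headers. The CQN values cover 13962 of 23346 genes and 71 of the 174 members. Per the labels' protocols, polyadenylated RNA was prepared with a TruSeq kit. The submitters' processing notes name hg19, CASAVA 1.9, TopHat2 2.0.6 and HTSeq, with no role or order. The annotation and strand setting of the counting are not given in the sources used here. All 186768 deposited counts were even, so 2 counts were read as 1 read pair where a detection limit was computed.

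Counts were scaled with edgeR 4.0.16 (R 4.3.3) by the trimmed mean of M-values. Detected genes had 1 CPM or more in each of the 8 libraries. Variation was tested with edgeR's goodness-of-fit test of an intercept-only model against the trended dispersion, with Benjamini-Hochberg adjustment over 11980 detected genes and a threshold of 0.05. On simulated data for these genes, 0 were called with none changed, and 177 of 200 genes raised 4-fold in 1 library were recovered. The simulated counts followed the fitted dispersion trend and held no trend on length. They therefore do not give the error rate of the calls in the real libraries. RPKM used canonical transcript lengths from GENCODE 44 lifted to GRCh37, found for 173 of 174 members. Gene starts in the table were read as counted from 0 and are printed counted from 1, on hg19 (GRCh37). The trend on length and GC content was removed per library with splines of 4 degrees of freedom each. Of 21 gene pairs listed, 18 had a detected gene and were compared by an exact permutation test, two-sided, that enumerates 256 patterns of sign, on log2 of (CPM + 0.1) per length, with Benjamini-Hochberg adjustment over the 18. Python 3.11.15 with NumPy 2.4.6 and pandas 2.3.3 was used. The alternatives were DESeq2 1.42.0 (size factors and fitted trend), other filters, lengths and pseudocounts, the CQN values, and leaving out libraries.

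Named genes were detected members, undetected members with a mean of at least 1 CPM, and a set list of channels known from neurons, glia, muscle and endothelium. Of the other channel genes, the 5 highest per length and those above the variation trend were named, and ABCC9 was added after its value was seen. The members, lists, pairs and tests were chosen with earlier results of these data known. Some members that the rules would name are not reported here.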

Additional observations from a re-analysis of the deposited data

Results flagged for a closer look

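In each of 54 channel genes, 40 detected ones and the 14 with a mean of at least 1 CPM that were not, the highest and the lowest of the 8 libraries were checked for a wide gap to the nearest other library. A gap wider than Dixon's critical value for 8 samples arises by chance in about 1 in 20 groups. In 1 gene of the 54 a library stood apart, which is no more than that rate would give. TRPV2 had 96.64 CPM in replicate 7 against a mean of 74.1 CPM in the other 7, a gap of 0.576 of its range. It was not above the variation trend in edgeR's test over all detected genes.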

How the results depend on the processing

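No analysis of paired samples was possible because the 8 libraries form 1 group. The gene pairs were compared within libraries. The count of detected members was 42 and became 82 when 10 counts per library were enough. Members above the variation trend numbered 3, against 7 with no CPM filter (background 3.96%), 12 with DESeq2's fitted trend (background 23.5%) and 1 with the trend on length and GC content removed (background 6.49%), with 2 to 4 when single libraries were left out. The log2 ratio of TRPM7 to TRPM4, 0.59 and not past the threshold, passed it on CPM with no length correction (1.95), on the CQN values (0.94), with union exon lengths (1.04), with the trend removed (0.59) and without replicates 2 and 8 (0.99). It ran from 0.49 to 0.76 when single libraries were left out, and passed without replicate 2 or without replicate 8. On CPM with no length correction, ORAI1 over ORAI2 reversed to -0.81 and ORAI1 over STIM1 to -0.99. ORAI1 over STIM1 was no longer past the threshold on the CQN values (0.11) or without replicates 2 and 8 (0.26). With union exon lengths, the share of the class sum was 19.4% for KCNK6, 26.7% for KCNAB2, 61.5% for CACNA1G and 25.5% for CACNB3, below CACNG6. On CPM it was 21.4% for KCNK6, 55.3% for KCNAB2, 35.8% for CACNB3, 24.8% for TRPV2, below TRPM7, and 17.0% for ORAI1, below STIM1. For the changes that came with another length, the length itself is the only difference between the settings; for the others the cause was not tested. Another 348 values were counted as unchanged: ratios that kept their sign and side of the threshold, whatever their size, shares that moved by less than 1 SD, and counts, which for detected members ran from 42 to 60. Depth limits the genes under 0.1 CPM, where a level cannot be told from the limit that a count of 0 allows.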
